A study of Mus musculus with 4 samples.

Results

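A group of 9 genes of neutrophil sensing and inflammation was examined in B cell preparations from the lymph nodes of mice transgenic for miR-146a. They are Csf3r, Cxcr2, Fpr1, Fpr2, Cd177, Ifitm6, Clec4d, Trem1 and Il1b, and they were looked up by symbol in the platform annotation. There 8 of the 9 were found, with 9 probe sets, among 17097 genes named on the arrays. No probe set carried the name Fpr1, which was not analysed here. The genes were picked with their differences between the groups already known, so their values are descriptions and carry no test. Where a gene had several probe sets, the brightest over all arrays stands for it.

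The study compared 2 male Balb/C mice carrying a miR-146a transgene (TG) with 2 male Balb/C wild type mice (WT), all aged 6 to 8 weeks. The promoter that drives the transgene and the number of founder lines are not given in the sources used here. B cells were obtained by magnetic removal of other cells and then of dead cells, and each mouse gave 1 Affymetrix array. Values are log2 signals, so a difference of 1 is a 2.00-fold change.

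Neutrophils are short-lived phagocytes that patrol the blood and enter tissue within hours of injury or infection. They are drawn in by receptors for chemokines and for formyl peptides shed by bacteria and damaged mitochondria, their production and survival depend on granulocyte colony-stimulating factor (G-CSF), and once activated they join monocytes in releasing interleukin 1 beta (IL-1 beta). They are few in a resting lymph node. miR-146a is a microRNA that damps signalling from Toll-like and interleukin 1 receptors. The transgene's products are shown with the seed, bases 2 to 8, in capitals, as RefSeq places them on the minus strand of GRCm38.p6 at chr11:43374435-43374456 for the 5p strand and chr11:43374399-43374420 for the 3p strand.
mmu-miR-146a-5p: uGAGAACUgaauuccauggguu
mmu-miR-146a-3p: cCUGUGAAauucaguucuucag
The level of miR-146a itself and sites for these seeds in the 9 genes were not analysed here.

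The arrays set limits that touch every value given here. The TG mouse 1 array had a median signal of 4.48, against 4.61 for TG mouse 2 and 4.59 to 4.60 for the WT mice, and its beta-actin signal was 0.47 higher at the 3′ end than in the middle of the transcript, against 0.14 to 0.16 on the other 3 arrays. Xist, the RNA expressed from the inactive X chromosome of female cells, stood at 9.13 and 9.56 in the TG arrays and at 5.96 and 6.19 in the WT arrays although all mice are labelled male. The Y-linked Eif2s3y was present in every array, at 7.80 and 8.00 in TG and at 8.29 and 8.34 in WT. Besides B cell transcripts such as Ms4a1, which encodes CD20 and was named after its values were seen (10.99 and 10.89 in TG, 11.27 and 11.33 in WT), the preparations held T cell transcripts, with Cd3e at 10.48 and 10.17 in TG and at 10.14 in both WT arrays. Non-specific control probe sets averaged 2.85 to 2.95 in TG and 2.83 to 2.84 in WT, and a signal near that level gives compressed differences. In bulk RNA, more cells of a type and more RNA per cell cannot be told apart.

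The 8 measured genes fell into 3 sets by size of difference. Ifitm6, Il1b and Fpr2 were higher in TG by at least 1 log2 unit, Cd177 and Clec4d were higher by about 0.5 from low levels, and Cxcr2, Csf3r and Trem1 differed by 0.15 or less. The TG and WT values did not overlap for 6 of the 8 genes, all of them higher in TG. Among the brightest probe sets of all 17097 genes, 17.7% were higher in TG with no overlap and 31.4% lower, and 0.45% were higher by at least 1 log2 unit. The median difference of the 8 genes was 0.49, and that of all genes was -0.05. Since the genes were chosen from this contrast, nothing is read from these counts or from the ranks of single genes given below. The shares of 17.7% and 31.4% apply as well to the counts without overlap given below for other lists.

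**Figure D1:**
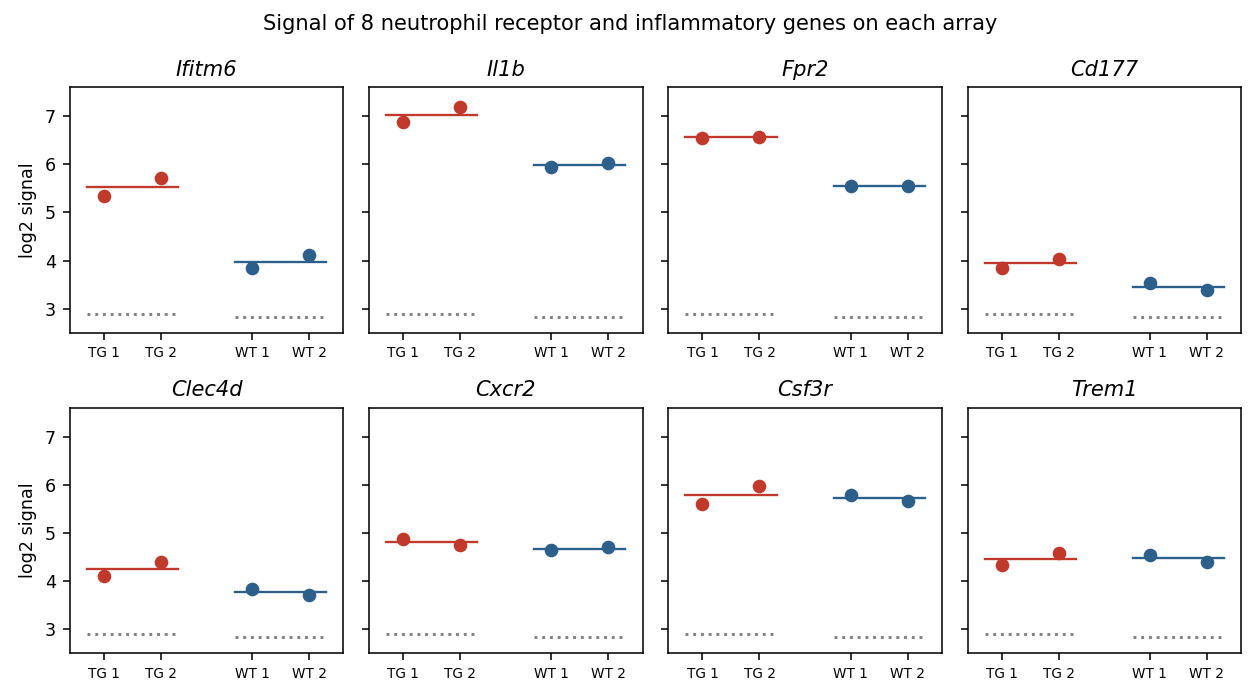
Log2 signal (vertical axes) of each gene on the 2 TG arrays (red, left) and the 2 WT arrays (blue, right), 1 point per mouse, with solid lines at the group means and dotted lines at the mean of the 11 non-specific control probe sets. Ifitm6, Il1b and Fpr2 show clear gaps between the groups, Cd177 and Clec4d lie low in both, and the points of Csf3r and Trem1 overlap.

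The formyl peptide receptor Fpr2 and the chemokine receptor Cxcr2 steer neutrophil migration. Fpr2 (probe set 1422953_PM_at) had signals of 6.54 and 6.57 in TG arrays, against 5.54 and 5.55 in WT arrays. Both TG mice lay above both WT mice by almost the same amount, and the lowest TG value exceeded the highest WT value by 0.99. The means were 6.56 ± 0.02 in TG and 5.55 ± 0.01 in WT (SD, n = 2 each), a 2.01-fold higher signal, and of 45037 probe sets 142 had a larger difference in this direction. Cxcr2 (1421734_PM_at), the receptor for Cxcl1 and Cxcl2, had signals of 4.88 and 4.76 in TG and 4.64 and 4.71 in WT. Its groups were separated by only 0.05, less than the 0.13 between the TG mice, and its means were 4.82 ± 0.09 in TG and 4.67 ± 0.04 in WT (SD, n = 2 each).

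Csf3r, the receptor for G-CSF, showed no separation. Csf3r (1418806_PM_at) had signals of 5.61 and 5.97 in TG arrays and 5.80 and 5.66 in WT arrays, so the WT mice lay between the TG mice. The means were 5.79 ± 0.26 in TG and 5.73 ± 0.10 in WT (SD, n = 2 each), a difference of 0.06 that was smaller than the gap of 0.37 between the TG mice. Its sign depended on the array used, at 0.24 without TG mouse 1 and -0.13 without TG mouse 2. After quantile normalization it was 0.24 and the groups no longer overlapped.

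Ifitm6, an interferon-induced transmembrane protein found in myeloid cells, had the largest difference of the 8 genes. Ifitm6 (1440865_PM_at) had signals of 5.34 and 5.72 in TG arrays, against 3.85 and 4.11 in WT arrays. Every TG value was at least 1.23 above every WT value, and the means were 5.53 ± 0.27 in TG and 3.98 ± 0.18 in WT (SD, n = 2 each), a 2.93-fold higher signal. Of 45037 probe sets 54 had a larger difference in this direction. The WT level lay 1.14 above the non-specific controls, where array signals are compressed.

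Cd177, Clec4d and Trem1 are surface proteins of activated or mature neutrophils. Cd177 (1424509_PM_at), a glycosylphosphatidylinositol-anchored protein of neutrophils, had signals of 3.85 and 4.04 in TG and 3.53 and 3.39 in WT. Clec4d (1420804_PM_s_at), a C-type lectin receptor of myeloid cells, had signals of 4.11 and 4.41 in TG and 3.84 and 3.71 in WT. The groups did not overlap for either gene, with differences of 0.49 and 0.48, but the WT means lay only 0.63 and 0.94 above the non-specific controls. Trem1 (1447284_PM_at), a receptor that amplifies inflammatory signals, had signals of 4.34 and 4.59 in TG and 4.54 and 4.41 in WT. Its groups overlapped, as they did for its second probe set (1460282_PM_at), and the 2 differences were -0.02 and 0.05. Trem1 differed by 0.03 once the arrays were quantile normalized and by 0.04 once they were centred on their medians.

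Il1b encodes the precursor of IL-1 beta, a cytokine of activated monocytes, macrophages and neutrophils. Il1b (1449399_PM_a_at) had signals of 6.87 and 7.18 in TG arrays, against 5.95 and 6.03 in WT arrays. Both TG mice exceeded both WT mice, by at least 0.84. The means were 7.02 ± 0.22 in TG and 5.99 ± 0.05 in WT (SD, n = 2 each), a 2.05-fold higher signal, and 134 of 45037 probe sets had a larger difference in this direction.

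TG mouse 2 lay above TG mouse 1 for 7 of the 8 genes, all but Cxcr2. The gap, TG mouse 2 minus TG mouse 1, ran from -0.13 for Cxcr2 to 0.39 for Ifitm6 with a median of 0.28, while the same gap had a median of 0.18 over all genes. The WT mice differed by -0.15 to 0.26. Fpr2 was the steadiest, with the TG mice 0.03 apart and the WT mice 0.01 apart. Without TG mouse 1 the median difference of the 8 genes was 0.61 and all 8 TG values lay above both WT values. With that array left out, 43.0% of all genes were higher without overlap and 37.7% lower. Without TG mouse 2 the median was 0.36, 6 lay above, and Csf3r and Trem1 lay below both WT values, by -0.13 and -0.14 on average. In that setting 27.2% of all genes were higher without overlap and 61.8% lower. Of the 8 genes only Ifitm6 then reached 1 log2 unit. Il1b was then 0.88 and Fpr2 0.99.

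**Figure D2:**
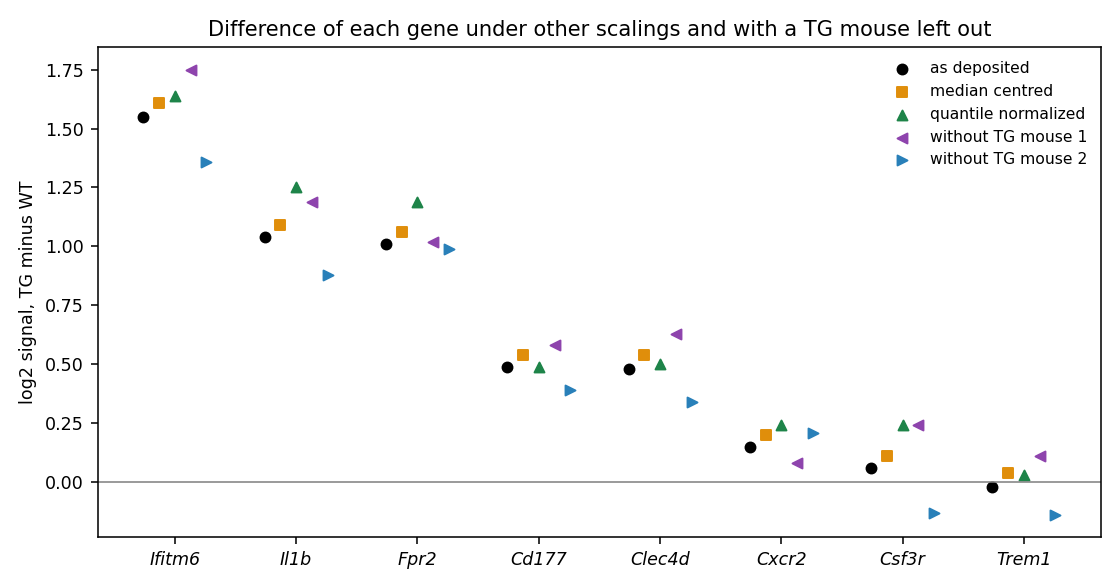
Difference in log2 signal, TG minus WT (vertical axis), of each of the 8 genes as deposited, after median centring, after quantile normalization, and with either TG mouse left out. Ifitm6, Il1b and Fpr2 stay at 0.88 or more in all 5 settings shown, while Csf3r and Trem1 fall on both sides of 0.

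The start regions of the genes are shown because genes with the largest and the smallest differences can be set side by side there. RefSeq promoter windows of GRCm38.p6 were available for all 9 genes, and the 250 bases before each annotated start were searched on both strands for the PU box GAGGAA, the core bound by the myeloid factor PU.1, for the C/EBP core TTGCNNAA and for the TATA box TATAAA. The PU box was found in 6 of 9 genes and in 23.3% of 32851 windows of the same length, the C/EBP core in 0 of 9 and in 9.56%, and the TATA box in 5 of 9 and in 12.4%. The 100 bases just before each start lie at chr7:141016893-141016992 on the minus strand (Ifitm6), chr2:129371140-129371239 on the minus strand (Il1b), chr17:17887724-17887823 on the plus strand (Fpr2), chr1:74153894-74153993 on the plus strand (Cxcr2) and chr4:126024559-126024658 on the plus strand (Csf3r). Their letters follow, with PU box and TATA box letters in capitals.
Ifitm6: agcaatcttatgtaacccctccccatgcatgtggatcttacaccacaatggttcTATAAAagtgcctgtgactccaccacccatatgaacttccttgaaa
Il1b: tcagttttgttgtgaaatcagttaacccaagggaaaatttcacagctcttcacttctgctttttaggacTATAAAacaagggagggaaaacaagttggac
Fpr2: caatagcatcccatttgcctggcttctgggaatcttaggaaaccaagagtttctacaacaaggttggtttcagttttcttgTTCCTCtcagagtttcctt
Cxcr2: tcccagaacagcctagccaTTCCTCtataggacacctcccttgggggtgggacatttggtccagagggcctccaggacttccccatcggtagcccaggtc
Csf3r: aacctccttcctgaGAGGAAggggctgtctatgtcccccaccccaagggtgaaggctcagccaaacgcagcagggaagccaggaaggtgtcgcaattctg

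TATAAA began 46 bases before the start of Ifitm6, 31 before Il1b and 40 before Cd177, and farther out in Fpr2 (130) and Fpr1 (227). The PU box, read as TTCCTC on the strand shown in Fpr2 and Cxcr2, was present in Fpr2, Cxcr2, Csf3r, Cd177, Clec4d and Trem1 and was not found in the windows of Ifitm6, Il1b and Fpr1. Only the spellings given above were searched, so a site with another spelling, for C/EBP as for the others, would be missed. A match is a description of letters only, and binding was not measured.

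Families and chromosomal neighbours of the genes were read from the same arrays. Ifitm6 lies beside Ifitm3, Ifitm1 and Ifitm2, whose products restrict virus entry. Ifitm2 had signals of 6.72 and 6.47 in TG and 5.89 and 5.72 in WT, a difference of 0.79 (SE 0.14, limma adjusted p = 0.164). Ifitm1 differed by 0.46 (limma adjusted p = 0.314, 0.0477 after quantile normalization and 0.12 after median centring). Ifitm3, the immediate neighbour, had signals of 7.74 and 7.92 in TG and 8.56 and 8.59 in WT. Its difference of -0.75 was in the opposite direction to Ifitm6 (SE 0.11, limma adjusted p = 0.142, 0.0606 after quantile normalization and 0.0482 after median centring). None of the 5 other family members measured passed an adjusted p of 0.05 over 45037 probe sets, of which 17 passed higher (0.0377%) and 4 lower (0.00888%). The median of the 5 was 0.25.

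Clec4d adjoins Clec4e, a partner lectin that senses mycobacterial and fungal glycolipids and dead cells. Clec4e had signals of 4.75 and 4.67 in TG, against 3.91 and 3.81 in WT, a 1.80-fold higher signal (difference 0.85, SE 0.10, limma adjusted p = 0.113, and 0.0401 after quantile normalization and 0.0379 after median centring), and a dimmer probe set differed by 0.35. Clec4n and Clec4a2, the measured neighbours on the other side, named after their values were seen, were also higher without overlap, by 0.40 and 0.14. Dimmer probe sets differed by 0.89 for Clec4n and by 0.37 and 0.03 for Clec4a2, the last with overlap. Clec7a, the beta-glucan receptor Dectin-1, differed by 0.47 (limma adjusted p = 0.213). Among 13 measured lectins, TREM family members and the adaptors that carry their signals, 7 were higher and 2 lower without overlap, the median was 0.23 and none passed. Syk, the kinase downstream of these receptors and also of the B cell receptor, differed by -0.69 (5.32 and 5.24 in TG, 5.95 and 6.00 in WT, limma adjusted p = 0.137). Tyrobp, the adaptor of Trem1, named after its values were seen, differed by -0.05, and by 0.12 after quantile normalization.

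Relatives of Trem1 and Fpr2 were also measured. Trem3, next to Trem1, differed by 0.29 and the nearby Treml4 by 0.42 (limma adjusted p = 0.387 and 0.226), while Trem2 differed by -0.05 as deposited and by 0.05 once the arrays were quantile normalized. Fpr-rs3, a relative of Fpr2, had signals of 3.69 and 3.55 in TG and 3.63 and 3.62 in WT. Fpr-rs4, another relative, had signals of 3.55 and 3.46 in TG and 3.52 and 3.43 in WT. The groups overlapped for both, at levels close to the non-specific controls. Cxcr1, the neighbour of Cxcr2, and Fpr3 were not analysed here.

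**Figure D3:**
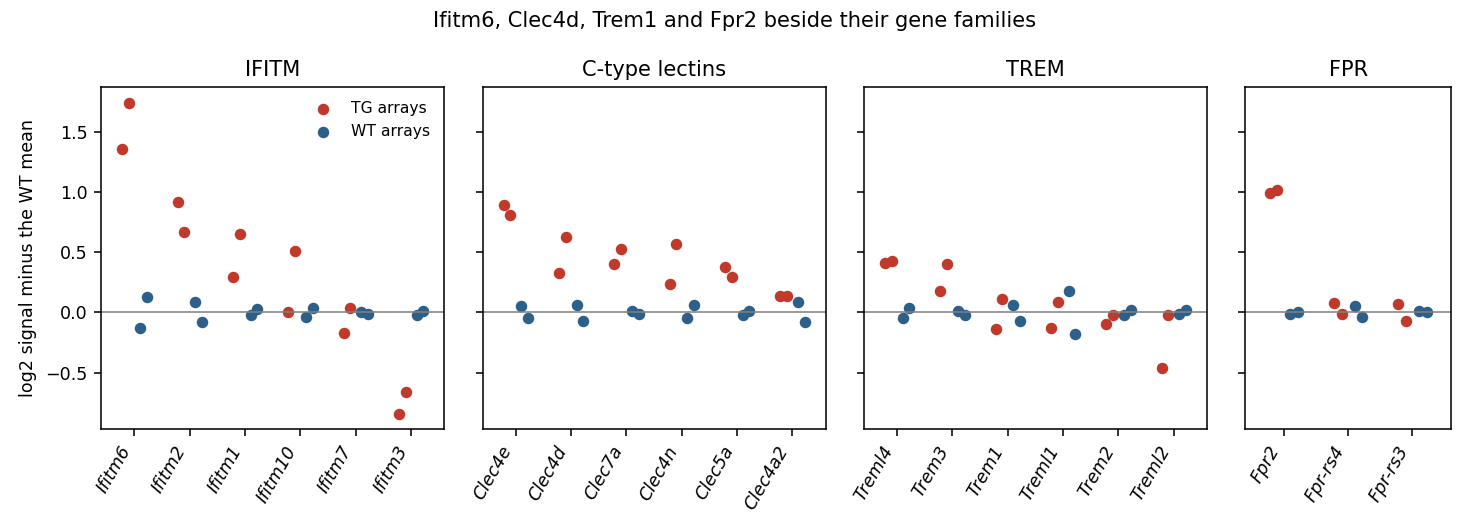
Log2 signal minus the WT mean of the same probe set (vertical axis) for members of the IFITM, C-type lectin, TREM and formyl peptide receptor (FPR) families, with 1 point per array, TG in red to the left of WT in blue. Ifitm6, Ifitm2 and Ifitm1 lie above 0 in TG and Ifitm3 below, and Fpr2 differs while Fpr-rs3 and Fpr-rs4 lie near 0.

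Ligands of the receptors were examined next. Cxcl2, a chemokine that acts through Cxcr2, had signals of 6.22 and 7.01 in TG arrays, against 4.95 and 4.81 in WT arrays. It was higher in both TG mice, 3.32-fold on average, with a gap of its own between them (difference 1.73, SE 0.28, limma adjusted p = 0.149, and 0.0211 after quantile normalization and 0.0335 after median centring). Cxcl1, a related chemokine, had signals of 4.59 and 5.39 in TG and 4.46 and 4.45 in WT (limma adjusted p = 0.471). Pglyrp1, a peptidoglycan recognition protein stored in neutrophil granules and a ligand reported for TREM-1, had signals of 6.37 and 6.29 in TG and 7.20 and 7.21 in WT. It was lower in both TG mice (difference -0.87, SE 0.10, limma adjusted p = 0.105, 0.127 after quantile normalization and 0.0446 after median centring). Saa3, an acute phase protein, differed by 0.35 (limma adjusted p = 0.265), and Csf3, the gene of G-CSF, named after its values were seen, by 0.08 (limma adjusted p = 0.785). None of 13 ligands passed, 4 were higher and 1 lower without overlap, and the median was 0.08.

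Among 14 other chemoattractant and cytokine receptors, the largest difference was 0.81, beside 1.01 for Fpr2. Ltb4r1, the leukotriene B4 receptor, had signals of 4.89 and 5.29 in TG and 4.35 and 4.22 in WT (difference 0.81, SE 0.17, limma adjusted p = 0.197, 0.0358 after quantile normalization and 0.0516 after median centring). Tnfrsf1a, the main TNF receptor, differed by 0.63 (limma adjusted p = 0.151, 0.0471 after quantile normalization and 0.0503 after median centring). Ifngr1, a chain of the interferon gamma receptor, differed by 0.45 and C3ar1, a complement receptor, by 0.34 (limma adjusted p = 0.221 and 0.362). Tnfrsf1a and Ifngr1 are expressed by many cell types. None of the 14 passed, 6 were higher and 2 lower without overlap, and the median was 0.11.

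Signalling genes downstream of the G-CSF receptor and factors of granulocyte development were lower without overlap for 4 of 10 genes, near the 31.4% of all genes. Spi1, which encodes PU.1 and is also expressed in B cells, had signals of 6.94 and 6.93 in TG and 7.83 and 8.03 in WT (difference -1.0, SE 0.11, limma adjusted p = 0.106, 0.078 after quantile normalization and 0.0375 after median centring). Fgr, a Src family kinase, differed by -1.17 (a dimmer probe set by -0.56), Cebpb by -0.49 and Gfi1, a repressor needed for neutrophil formation, by -0.34 (limma adjusted p = 0.233, 0.378 and 0.386). The 2 dimmer probe sets of Cebpb differed by 0.19 and 0.10. None of the 10 passed, 3 were higher without overlap, and the median of -0.06 became 0.10 after quantile normalization. B cell markers were lower in the same arrays, all 11 measured without overlap (median -1.02, summed linear signals of 7720 and 8200 in TG and 14700 and 15400 in WT). The part of B cell RNA in these differences was not tested.

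Genes of the IL-1 pathway and the inflammasome, listed with other inflammatory genes such as Tnf and Ptgs2, differed by 0.47 or less in either direction, beside 1.04 for Il1b. Il1r2, the decoy receptor for IL-1, had signals of 6.27 and 6.79 in TG and 6.09 and 6.06 in WT (difference 0.45, SE 0.19, limma adjusted p = 0.404, 0.0467 after quantile normalization and 0.184 after median centring). Ptgs2, the inducible cyclooxygenase, differed by 0.47 (0.00 on a second, dimmer probe set), and the inflammasome genes Pycard and Casp4 by -0.26 and -0.29 (limma adjusted p = 0.396, 0.388 and 0.442). Dimmer probe sets of Pycard differed by -0.15, with overlap, and by 0.24, without overlap. Named after their values were seen, Il1a, the neighbour of Il1b that encodes IL-1 alpha, differed by 0.03, and Casp1, the protease that cleaves the precursor, by -0.23 with a gap between the TG mice (6.68 and 7.52 in TG, 7.38 and 7.29 in WT). None of 14 genes passed, 4 were higher and 4 lower without overlap, and the median was 0.02.

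Granule and alarmin genes of neutrophils were the only related genes listed here with members past the threshold. Chil3, a chitinase-like protein, and Ngp, a neutrophil granule protein, rose (differences 3.83 and 2.77, limma adjusted p = 0.0219 for each), the 2 of 17 measured genes past the threshold. Neither passed with either WT mouse left out, but no probe set on the arrays did in those settings. The differences were 3.93 for Chil3 and 2.74 for Ngp without WT mouse 1, and 3.74 and 2.8 without WT mouse 2. S100a8 and S100a9 differed by 2.58 and 2.53 (limma adjusted p = 0.0935 and 0.0794, after quantile normalization 0.00869 and 0.00408, and after median centring 0.011 and 0.00647). Of the 17 genes 14 were higher and 1 lower without overlap, with a median of 0.80, beside 0.49 for the 8 genes described here, a gap that was not tested. The summed linear signal of the 17 was 1790 and 2450 in TG and 504 and 501 in WT. Mpo and Elane, proteins of the early granules made in the bone marrow, differed by 0.11 and 0.16 (limma adjusted p = 0.669 and 0.55). Ly6g, the usual surface marker of mouse neutrophils, was not analysed here.

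Adhesion and inhibitory receptors of neutrophils pointed both ways. Lilrb4a, an inhibitory receptor of myeloid cells, had signals of 6.37 and 7.25 in TG and 5.60 in both WT arrays (difference 1.21, limma adjusted p = 0.242, 0.0387 after quantile normalization and 0.0795 after median centring). Pirb, another inhibitory receptor that B cells also express, had signals of 4.47 and 5.37 in TG and 6.16 and 6.32 in WT (difference -1.33, limma adjusted p = 0.225). Selplg, the selectin ligand, and Pilra differed by 0.40 and 0.43 (limma adjusted p = 0.226 and 0.212). None of 11 passed, 5 were higher and 2 lower without overlap, and the median was 0.28.

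Markers of other cells that could contribute the same transcripts were read from the same arrays. Of 13 monocyte and macrophage markers 9 were higher and 0 lower without overlap, beside 17.7% and 31.4% of all genes. Their median was 0.22, with summed linear signals of 1910 and 2250 in TG and 1490 and 1460 in WT. Ccr2 and Cd14, which monocytes express, differed by 1.19 and 0.97 (limma adjusted p = 0.0935 and 0.144, and for Ccr2 0.0205 after quantile normalization and 0.0164 after median centring), whereas Csf1r and Adgre1, the defining receptors of monocytes and macrophages, differed by 0.14 and 0.08. Of 10 markers of eosinophils, basophils and mast cells 8 were higher and 1 lower without overlap (median 0.22, summed linear signals of 257 and 346 in TG and 164 and 154 in WT). Mcpt8 was the lower one, by -0.13, Ms4a2 overlapped at 0.08, and Kit and Gata2 differed by 0.24 and 0.20. The largest differences were 2.36 for Cpa3 and 1.42 for Fcer1a (limma adjusted p = 0.105 and 0.0678). Both passed after quantile normalization (0.0105 and 0.0111, limma adjusted p) and after median centring (0.0164 and 0.0104). Fcer1a also passed with a trended eBayes (limma adjusted p = 0.0167). It passed as well when probe sets were averaged per gene (limma adjusted p = 0.0433), where its own difference stayed at 1.42. Siglecf, a marker of eosinophils, lay near the non-specific controls, at 2.73 and 2.77 in TG and 2.65 and 2.56 in WT. The WT signals of Fcer1a, 2.57 and 2.59, lay below the mean of those controls.

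T cell markers were higher without overlap for 8 of 9 genes, beside 17.7% of all genes. Their median was 0.29, with summed linear signals of 13000 and 14600 in TG and 10300 and 10500 in WT. The largest rises were in Cd8a, Cd28 and Cd8b1, by 1.14, 0.78 and 0.74 (limma adjusted p = 0.101, 0.255 and 0.168). Cd4 went the other way without overlap, at 7.05 and 7.03 in TG and 7.76 and 7.90 in WT (difference -0.79, limma adjusted p = 0.127). A dimmer probe set of Cd4 overlapped, with a difference of -0.08. Dendritic cell markers, 5 measured, had a median of 0.09, with sums of 224 and 217 in TG and 235 and 252 in WT. The medians were 0.18 for 8 natural killer cell markers and -0.01 for 5 of erythroid cells and platelets. Of the natural killer cell markers 3 were higher and 2 lower without overlap. They included Eomes at 1.17 and Gzma at -0.96 (limma adjusted p = 0.0809 and 0.183). No marker of any of the 7 cell lists passed the threshold over all probe sets as deposited. After quantile normalization 7 B cell markers passed as lower, 3 T cell, 2 monocyte and 2 eosinophil, basophil or mast cell markers passed as higher, and 2 natural killer cell markers passed, 1 of them higher. After median centring 6 B cell markers passed as lower, and 2 T cell, 1 monocyte, 2 eosinophil, basophil or mast cell and 1 natural killer cell marker passed as higher. The part of neutrophils, monocytes, mast cells or other cells in the signals of Ifitm6, Il1b, Fpr2 and the other genes was not tested.

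**Figure D4:**
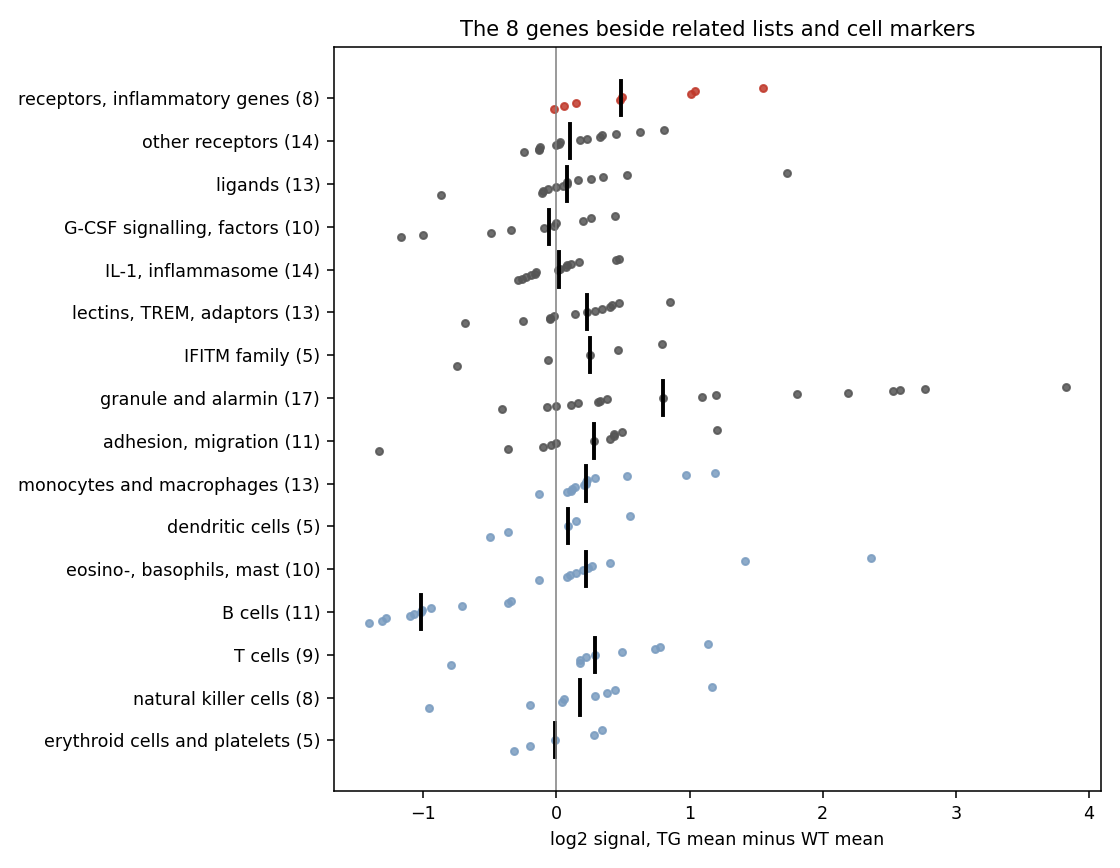
Difference in log2 signal, TG mean minus WT mean (horizontal axis), for the 8 genes (red), for 8 lists of related genes (dark grey) and for 7 lists of cell type markers (light blue), with 1 point per gene, a black bar at each median and the number of genes in brackets. The granule and alarmin list has the highest median, 0.80, and the B cell list the lowest, -1.02.

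Genes whose pattern over the 4 arrays was most like the mean of the 8 were found by the root mean square distance between values centred on each gene's own mean. The mean centred profile was 0.19 and 0.40 in TG and -0.29 and -0.31 in WT. The 6 nearest genes were Cd44, an adhesion receptor, Art4, a blood group protein, Il2rb, a chain of the interleukin 2 and interleukin 15 receptors, Ppm1h, a phosphatase, Smad1, a mediator of bone morphogenetic protein signals, and Acvrl1, a receptor of the same family of ligands, at distances of 0.0156 to 0.0227 log2 units. Cd44 had signals of 9.09 and 9.28 in TG and 8.59 and 8.61 in WT. Dimmer probe sets of Il2rb differed the other way, by -0.20 and -0.16. The measure rests on 4 arrays, 1 of which stood apart from the rest.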

How the data were processed

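RNA of B cell preparations from 2 miR-146a transgenic and 2 wild type mice was labelled with a 3′ IVT Express kit for Affymetrix arrays, per the labels' protocols. Signals of 45141 probe sets were deposited by the authors on a log2 scale. Background correction, normalization and summary are not given in the sources used here, and the range of the values gave the scale. Tests did not include the 104 control probe sets. Gene names came from the platform annotation, which gives 28898 probe sets 1 gene, 551 several and 15588 none.

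All 45037 remaining probe sets were fitted with limma 3.58.1 in R 4.3.3 (lmFit, eBayes, two-sided, Benjamini-Hochberg, threshold 0.05), and an adjusted p comes from this fit unless another setting is named beside it. The fit was also run on simulated arrays of equal spread. They lacked the offset of TG mouse 1, so that check says nothing of the calls made here. An exact permutation test of 2 against 2 cannot go below p = 0.333. The p-values measure only the spread between these mice. The 9 genes, the lists and the motifs were chosen with earlier results of these data known. Named genes were the 9, up to 4 per related list and 3 per marker list by smallest p with a few defining markers, families, sex-linked genes and the 6 most alike genes. Alternatives were quantile normalization, centring on array medians, keeping probe sets above the 40th percentile (4.1), averaging a gene's probe sets, the replicate block, a trended and robust eBayes, a threshold of 0.1 and leaving out each array. Promoter and microRNA sequences are from RefSeq, GRCm38.p6. Figures were drawn with matplotlib 3.10.9.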

Additional observations from a re-analysis of the deposited data

How the results depend on the processing

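With 2 mice a group, and TG mouse 1 apart from the other arrays, counts of calls moved with the scaling. Of all probe sets 21 passed as deposited, 875 after quantile normalization, 612 after median centring, 51 after the filter on dim probe sets, 139 at a threshold of 0.1, and 0 to 19110 with an array left out, where the lone mouse is assumed to vary like the other group. The share higher was 81.0% as deposited, 46.4%, 30.7% and 74.5% in the first 3 of these settings, 46.8% at the threshold of 0.1 and 73.1% with a trended eBayes; the median of all genes was -0.05 as deposited, 0.02 after quantile normalization and -0.11 after the filter.

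After quantile normalization 2 of the other receptors, 1 ligand, 1 IL-1 gene, 1 lectin or TREM gene, 1 IFITM gene, 7 granule genes and 1 adhesion gene passed. After median centring 2 ligands, 1 G-CSF gene, 1 lectin or TREM gene, 1 IFITM gene and 7 granule genes passed. The filter and the threshold of 0.1 each gave 4 granule genes. With an array left out the counts were 0 to 7 for other receptors, 0 to 5 for ligands, G-CSF and IL-1 genes, 0 to 7 for lectins, 0 to 4 for IFITM, 0 to 13 for granule and 0 to 6 for adhesion genes, and the median of the 8 genes was 0.36 to 0.61.

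Signs turned for Fpr-rs3 (0.002 quantile, 0.05 centring, -0.07 to 0.07 with an array left out), Uty (0.03 quantile, 0.04 centring, -0.20 to 0.17 with an array left out), Trem2 (0.05) and Tyrobp (0.12) after quantile normalization, and Kdm5d as the mean of its probe sets (0.13). With an array left out the ranges also crossed 0 for Casp1 (-0.65 to 0.19), Tyrobp (-0.22 to 0.12), Fpr-rs4 (-0.02 to 0.08), Csf1r (-0.02 to 0.30), Csf3 (-0.03 to 0.20), Il1a (-0.05 to 0.12), and Ifitm10 and the IFITM median (-0.004 to 0.51 each). The cause was not tested. The replicate block gave 15 probe sets, 13 higher and 2 lower, and changed no call among the named genes; the labels do not say that a number pairs mice, and the deviations of same-numbered mice correlated at 0.014.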
